A study of Homo sapiens with 6 samples.

Results

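The 10 genes described here move iron into human cells, store it, sense it or export it: TFRC, TFR2, SLC11A2, STEAP3, FTH1, FTL, NCOA4, IREB2, FBXL5 and SLC40A1. They were chosen by name for these roles and not by a threshold on their values, and all 10 were among the 19330 genes of the count table and among the 8324 that passed the filter on low counts. Their messenger RNA (mRNA) was measured by RNA-Seq in K562, a human chronic myelogenous leukemia cell line with erythroid character, to ask what depletion of N6AMT1 does to transcript levels. N6AMT1 is the catalytic partner in a protein methyltransferase that modifies the translation termination factor eRF1.

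All cells were transduced with a lentivirus carrying Cas9 with an sgRNA and were selected with puromycin. The 3 sgCtrl libraries came from cells with a control sgRNA aimed at olfactory receptor genes, per the labels, and the 3 sgN6AMT1 libraries from cells with an sgRNA against N6AMT1. Both conditions were analysed 10 days after infection. The cells were transduced pools and not clones, so that cells with an intact N6AMT1 could remain among them. In a pool, a smaller number of expressing cells and less RNA per cell cannot be told apart. According to the study each library stands for a separate transduction. Nothing in the sources used here says which sgRNA a given library received.

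Total counts were 742470 to 866894 in the sgCtrl libraries, 959319 in sgN6AMT1 replicate 1, and 5526904 and 4062363 in sgN6AMT1 replicates 2 and 3. Depth therefore differed with the condition, and 2 of the sgN6AMT1 libraries carry much less counting error than the others. N6AMT1 itself had 6, 5 and 9 counts in sgCtrl against 0, 18 and 16 in sgN6AMT1, or 8.04 ± 2.39 against 2.43 ± 2.15 cpm (SD, n = 3; cpm here means counts per 1000000 counts of the library after TMM normalization), lower in each sgN6AMT1 library but too few to pass the filter. In total, 820 of the 8324 tested genes changed at an adjusted p under 0.05 (edgeR's quasi-likelihood test with Benjamini-Hochberg adjustment). The erythroid markers of K562 were present, and their summed level, most of it from the fetal globins HBG1 and HBG2, was 12585 to 19237 cpm in sgCtrl against 19695 to 36452 cpm in sgN6AMT1.

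Cells match iron uptake to storage largely after transcription. The iron regulatory proteins IRP1 (encoded by ACO1) and IRP2 (encoded by IREB2) bind a short RNA hairpin, the iron-responsive element (IRE), when iron is scarce. Bound to IREs in the 3′ UTR of the transferrin receptor mRNA they shield it from decay, and bound to an IRE in the 5′ UTR of the ferritin mRNAs they block translation without needing to change the amount of mRNA. When iron is plentiful the ubiquitin ligase subunit FBXL5 is stabilized and marks IRP2 for degradation. Erythroid cells, from which K562 derives its character, take up large amounts of transferrin-bound iron for heme.

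The hairpins are the feature that divides these genes into IRP-stabilized and IRP-repressed transcripts, and they are shown for that reason. Sequences were read from the GRCh38 genome with the canonical transcripts of GENCODE v44. Each is 27 bases long, written 5′ to 3′ in the sense of the transcript, with the 6-base loop in capitals. A match was required to hold a C that bulges from the stem, 5 base pairs above it with G-U pairs allowed, and a loop reading CAGTGN. TFRC held 4 such hairpins, all in its 3′ UTR on the minus strand:
TFRC hairpin 1, chr3:196050980-196051006: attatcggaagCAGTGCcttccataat
TFRC hairpin 2, chr3:196050576-196050602: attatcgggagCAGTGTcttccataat
TFRC hairpin 3, chr3:196050511-196050537: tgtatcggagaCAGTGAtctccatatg
TFRC hairpin 4, chr3:196050464-196050490: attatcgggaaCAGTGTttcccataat

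The ferritins and the exporter each held 1 hairpin, in the 5′ UTR, and so did ALAS2, the erythroid enzyme that begins heme synthesis:
FTH1, minus strand, chr11:61967575-61967601: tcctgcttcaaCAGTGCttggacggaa
FTL, plus strand, chr19:48965336-48965362: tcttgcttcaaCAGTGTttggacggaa
SLC40A1, minus strand, chr2:189580662-189580688: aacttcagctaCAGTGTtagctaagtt
ALAS2, minus strand, chrX:55030942-55030968: tcgttcgtcctCAGTGCagggcaacag

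The ferritin hairpins were identical at 25 of 27 bases. Counted from 1 at the 5′ end of the printed sequence, with the FTH1 base first, the differences were C3T in the lower stem and C17T in the last base of the loop. SLC11A2 had no exact match. With 1 mispair allowed in the upper stem it held a hairpin in its 3′ UTR, in 6 of its 24 coding transcripts, which the gene-level counts do not separate:
SLC11A2, minus strand, chr12:50988270-50988296: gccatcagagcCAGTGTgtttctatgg

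Among the 18723 canonical transcripts searched, 138 (0.737%) held an exact match in a UTR, 3 (0.016%) held 2 or more, and 905 (4.83%) held at least 1 when a mispair was allowed. Of the 10 iron genes, 4 held an exact match. With 1 mispair allowed, IREB2 held 1 match in a UTR as well, and so did ACO1, so the relaxed rule did not single out SLC11A2. TFR2, STEAP3, NCOA4 and FBXL5 held none under it. A match describes the letters of a window and is not a measurement of IRP binding.

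Of the 10 genes, FTL and NCOA4 rose in N6AMT1-depleted cells by edgeR, and by DESeq2 as well, and none was called lower by either tool. Across all tested genes, 9.85% were called, 5.09% as higher and 4.76% as lower. The values of the conditions did not overlap for 6 of the 10 genes, 3 higher (FTL, NCOA4 and FBXL5) and 3 lower (TFRC, IREB2 and SLC40A1), where 29.2% of all tested genes did not overlap. The median log2 fold change of the 10 genes was -0.17, with 4 positive and 6 negative values, and that of all tested genes was 0.01. At an unadjusted p under 0.05 in edgeR, 4 of the 10 genes passed, IREB2 and SLC40A1 (both with negative log2 fold changes) besides the called pair, where 26.2% of all tested genes did.

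**Figure D1:**
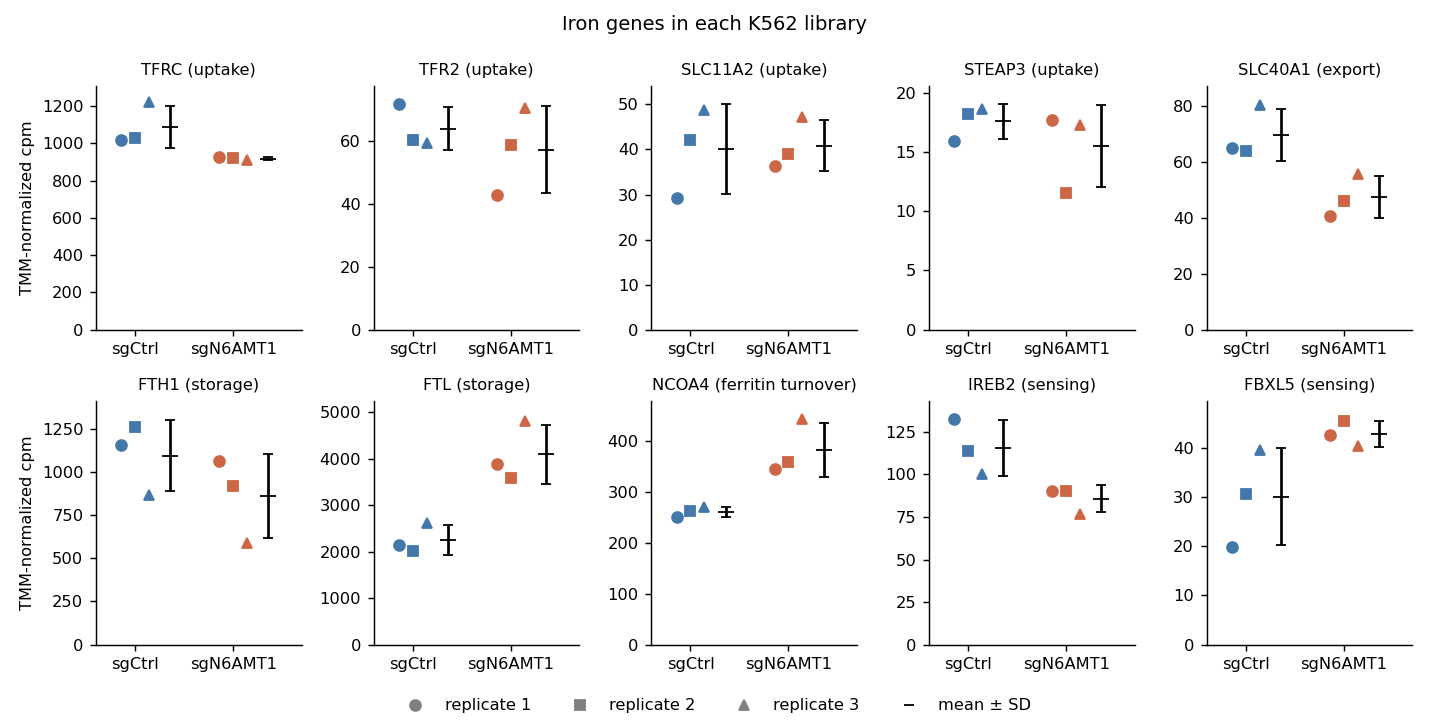
TMM-normalized cpm (vertical axes, each from 0) of the 10 iron genes in the 3 sgCtrl (blue) and 3 sgN6AMT1 (orange) libraries, with the mean and SD of each condition in black and the marker shape giving the replicate number. FTL lay between 2014 and 2607 cpm in sgCtrl and between 3585 and 4807 cpm in sgN6AMT1, while TFRC, SLC40A1 and IREB2 were lower in each sgN6AMT1 library without passing the test.

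TFRC encodes transferrin receptor 1, which carries iron-loaded transferrin into endosomes, and lies at chr3:196012511-196082153 on the minus strand. Its level was 1017, 1031 and 1220 cpm in sgCtrl replicates 1, 2 and 3 and 926, 920 and 908 cpm in sgN6AMT1 replicates 1, 2 and 3. All sgN6AMT1 values were below the lowest sgCtrl value, and they were close to each other. The means were 1089 ± 113 and 918 ± 9.09 cpm (SD, n = 3). The log2 fold change of -0.25 (SE 0.15) did not pass the test (adjusted p = 0.30, edgeR's quasi-likelihood test). The direction was the same when each library was left out in turn, with log2 fold changes of -0.30 to -0.16, and a correction for GC content and length brought it to -0.13.

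TFR2 (chr7:100620416-100642779, minus strand) encodes the second transferrin receptor, which binds transferrin with lower affinity and is expressed in liver and erythroid cells. It had 71.6, 60.3 and 59.3 cpm in sgCtrl and 42.6, 58.5 and 70.2 cpm in sgN6AMT1. The ranges overlapped, since sgN6AMT1 replicate 3 lay near the highest sgCtrl library and sgN6AMT1 replicate 1 below all others. The log2 fold change was -0.11 (SE 0.21, adjusted p = 0.791, edgeR's quasi-likelihood test) and was 0.01 without sgN6AMT1 replicate 1. TFRC counts were 14.1 to 20.4 times those of TFR2 in sgCtrl and 12.9 to 21.5 times in sgN6AMT1.

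SLC11A2 (chr12:50979401-51028566, minus strand) encodes DMT1, the transporter that takes ferrous iron out of the endosome. Its values of 29.2, 42.1 and 48.8 cpm in sgCtrl spanned those of sgN6AMT1, at 36.4, 39.1 and 47.2 cpm. The means of 40.0 ± 10.0 and 40.9 ± 5.61 cpm (SD, n = 3) gave a log2 fold change of 0.04 (SE 0.24, adjusted p = 0.940, edgeR's quasi-likelihood test). Its lowest library, sgCtrl replicate 1, rested on 22 counts, with a 95% Wilson interval of 19.6 to 44.9 raw cpm, which holds the level of every other sgCtrl and sgN6AMT1 library but sgCtrl replicate 3 and sgN6AMT1 replicate 3. Intervals of this kind cover counting error only, since reads without molecular identifiers are not independent molecules.

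STEAP3 (chr2:119223831-119265652, plus strand) encodes the endosomal ferrireductase that prepares iron for DMT1. It was the least abundant of the 10 genes, at 15.9, 18.2 and 18.6 cpm in sgCtrl and 17.7, 11.5 and 17.2 cpm in sgN6AMT1. The low value came from sgN6AMT1 replicate 2, with 64 counts, and the ranges overlapped. The log2 fold change was -0.24 (SE 0.33, adjusted p = 0.696, edgeR's quasi-likelihood test) and was -0.01 without that library. The 12 counts of sgCtrl replicate 1 allow 9.25 to 28.3 raw cpm (95% Wilson interval), so that a moderate difference was not detectable at this depth. STEAP3 overlaps an antisense gene on the opposite strand, and whether counting used the strand is not given in the sources used here. TFRC, FTH1, NCOA4 and IREB2 also overlap genes on the opposite strand.

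The storage genes gave the clearest difference, and they did not move together. Ferritin is a shell of heavy (FTH1) and light (FTL) chains. The heavy chain oxidizes iron on entry and the light chain favors its mineralization in the core. FTL (chr19:48965309-48966879, plus strand) rose from 2130, 2014 and 2607 cpm in sgCtrl to 3874, 3585 and 4807 cpm in sgN6AMT1. The lowest sgN6AMT1 library lay above the highest sgCtrl library. The means of 2251 ± 314 and 4089 ± 639 cpm (SD, n = 3) correspond to a 1.82-fold increase, a log2 fold change of 0.86 (SE 0.17, adjusted p = 0.00497, edgeR's quasi-likelihood test). Without sgCtrl replicate 2 the log2 fold change was 0.78 and the adjusted p was 0.0604. Set against the sgCtrl libraries alone, sgN6AMT1 replicate 1, the library of like depth, gave 0.80, a value from 1 sgN6AMT1 library that has no replicate spread of its own.

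FTH1 (chr11:61959718-61967634, minus strand) had 1159, 1260 and 869 cpm in sgCtrl and 1066, 920 and 591 cpm in sgN6AMT1. The ranges overlapped, and replicate 3 was the lowest library in each condition. The means were 1096 ± 203 and 859 ± 243 cpm (SD, n = 3), and the log2 fold change of -0.36 (SE 0.20) did not pass the test (adjusted p = 0.262, edgeR's quasi-likelihood test). With single libraries left out it ran from -0.54 (without sgN6AMT1 replicate 1, adjusted p = 0.0852 in edgeR) to -0.15 (without sgN6AMT1 replicate 3), and after a correction for GC content and length it was -0.49. The settings included 1 in which FTH1 was called lower, the same correction with the replicate number as a block (-0.51, adjusted p = 0.00139, edgeR's quasi-likelihood test).

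Within a library, the scaling between libraries cancels, so the chains were also compared as a ratio of counts. FTL over FTH1 was 1.84, 1.6 and 3.0 in sgCtrl and 3.63, 3.90 and 8.13 in sgN6AMT1. Each sgN6AMT1 library exceeded each sgCtrl library, and the highest value of each condition was in replicate 3. The mean log2 ratio differed by 1.24, against SDs of 0.48 in sgCtrl and 0.64 in sgN6AMT1, with no test run on any ratio. FTL made up 64.8%, 61.5% and 75.0% of ferritin counts in sgCtrl and 78.4%, 79.6% and 89.1% in sgN6AMT1. The summed level of both chains was 3346 ± 113 cpm in sgCtrl and 4948 ± 447 cpm in sgN6AMT1 (SD, n = 3), a ratio of 1.48 to which FTL alone contributed an increase. The annotation holds 26 pseudogenes named after FTH1, 16 named after FTL and 4 named after NCOA4, and how reads shared with them were assigned is not given in the sources used here.

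NCOA4 (chr10:46005088-46030623, minus strand) encodes the receptor that delivers ferritin to lysosomes, where stored iron is released. It rose from 250.5, 261.8 and 271.0 cpm in sgCtrl to 346, 360 and 443 cpm in sgN6AMT1. The sgCtrl libraries lay within a narrow range and all sgN6AMT1 libraries above it. The means of 261 ± 10.2 and 383 ± 52.5 cpm (SD, n = 3) gave a 1.47-fold increase, a log2 fold change of 0.56 (SE 0.15, adjusted p = 0.0245, edgeR's quasi-likelihood test). The adjusted p by the same edgeR test rose to 0.0927 when sgCtrl replicate 1 was dropped, to 0.113 for sgCtrl replicate 2 and to 0.0593 for sgN6AMT1 replicate 3, and the log2 fold changes were then 0.52, 0.55 and 0.44. Against the sgCtrl libraries alone, sgN6AMT1 replicate 1, the library of like depth, gave 0.42. That value rests on 1 sgN6AMT1 library and has no replicate spread of its own. NCOA4 counts per FTH1 count, the chain that NCOA4 binds, were 0.217, 0.208 and 0.312 in sgCtrl and 0.325, 0.391 and 0.750 in sgN6AMT1.

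**Figure D2:**
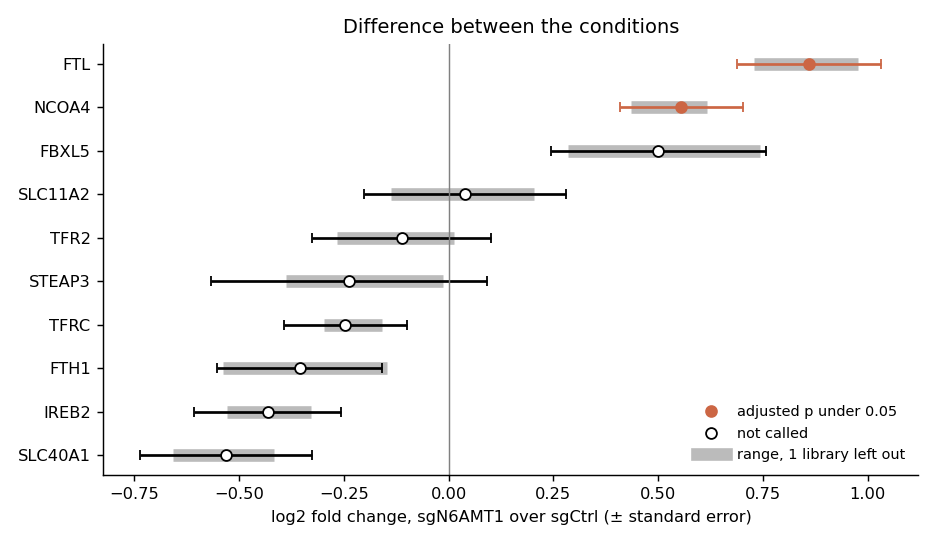
Log2 fold change of each iron gene, sgN6AMT1 over sgCtrl (horizontal axis), from edgeR's fit of all tested genes; points and black or orange bars give the estimate with its standard error, filled orange points passed an adjusted p of 0.05, and grey bands span the estimates obtained when any 1 library was removed. FTL at 0.86 and NCOA4 at 0.56 are filled, and the grey bands of TFR2 and SLC11A2 cross 0.

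The sensing genes differed in opposite directions, and neither passed the test. IREB2 (chr15:78437431-78501453, plus strand), which encodes IRP2, had 133, 114 and 100.0 cpm in sgCtrl and 90.4, 90.4 and 76.6 cpm in sgN6AMT1. All sgN6AMT1 values were below the lowest sgCtrl value, with a log2 fold change of -0.43 (SE 0.17, adjusted p = 0.122, edgeR's quasi-likelihood test). The GC content and length correction brought the IREB2 value to -0.25. FBXL5 (chr4:15604381-15681679, minus strand), the subunit that senses iron and targets IRP2, had 19.9, 30.7 and 39.5 cpm in sgCtrl and 42.6, 45.6 and 40.3 cpm in sgN6AMT1. Its sgN6AMT1 libraries all lay above the sgCtrl libraries, but sgCtrl replicate 3 came within the counting error of them, at 34 counts. The log2 fold change was 0.50 (SE 0.26, adjusted p = 0.226, edgeR's quasi-likelihood test) and was 0.29 without sgCtrl replicate 1, which had 15 FBXL5 counts, and 0.74 without sgCtrl replicate 3. FBXL5 overlaps FAM200B on the opposite strand. ACO1, which encodes the other regulatory protein, IRP1, stood at 39.9 ± 6.91 cpm in sgCtrl and 45.3 ± 9.29 cpm in sgN6AMT1 (SD, n = 3), with an adjusted p of 0.686 by edgeR's quasi-likelihood test.

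SLC40A1 (chr2:189560590-189583758, minus strand) encodes ferroportin, the cellular iron exporter. It had 65.0, 63.7 and 80.2 cpm in sgCtrl and 40.5, 46.1 and 55.5 cpm in sgN6AMT1, lower in each sgN6AMT1 library. The means were 69.6 ± 9.20 and 47.4 ± 7.58 cpm (SD, n = 3). The log2 fold change of -0.53 (SE 0.21) did not pass after adjustment over all tested genes (adjusted p = 0.108, edgeR's quasi-likelihood test). It kept its direction without each library in turn, at -0.66 to -0.42.

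The transcripts that IRPs stabilize were then set against the ferritins, on the log2 scale of counts within each library. The mean of TFRC and SLC11A2 minus the mean of FTH1 and FTL was -3.17, -2.93 and -2.62 in sgCtrl and -3.46, -3.26 and -3.02 in sgN6AMT1. The ranges overlapped, because sgN6AMT1 replicate 3 lay above sgCtrl replicate 1. The difference of means was -0.34, against SDs of 0.28 in sgCtrl and 0.22 in sgN6AMT1.

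The outcome of this contrast depended on the ferritin chain. TFRC counts per FTL count were 0.477, 0.512 and 0.468 in sgCtrl and 0.239, 0.257 and 0.189 in sgN6AMT1, lower in each sgN6AMT1 library and a log2 difference of -1.10. TFRC counts per FTH1 count were 0.878, 0.819 and 1.40 in sgCtrl and 0.869, 1.00 and 1.54 in sgN6AMT1, with overlapping ranges and a log2 difference of 0.14. For SLC11A2 the log2 ratio to FTL was lower in each sgN6AMT1 library (difference -0.82), and the log2 ratio to FTH1 overlapped (difference 0.42). By arithmetic, the gap between these differences is the FTL over FTH1 difference of 1.24, whichever gene is set above the chains. The division is therefore a property of the ferritins, and SLC11A2 is not a separate observation of it. With both uptake genes against FTL alone the contrast was -0.96, and against FTH1 alone it was 0.28, so its sign follows the chain used. TFRC and SLC11A2 themselves were not called in either direction.

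**Figure D3:**
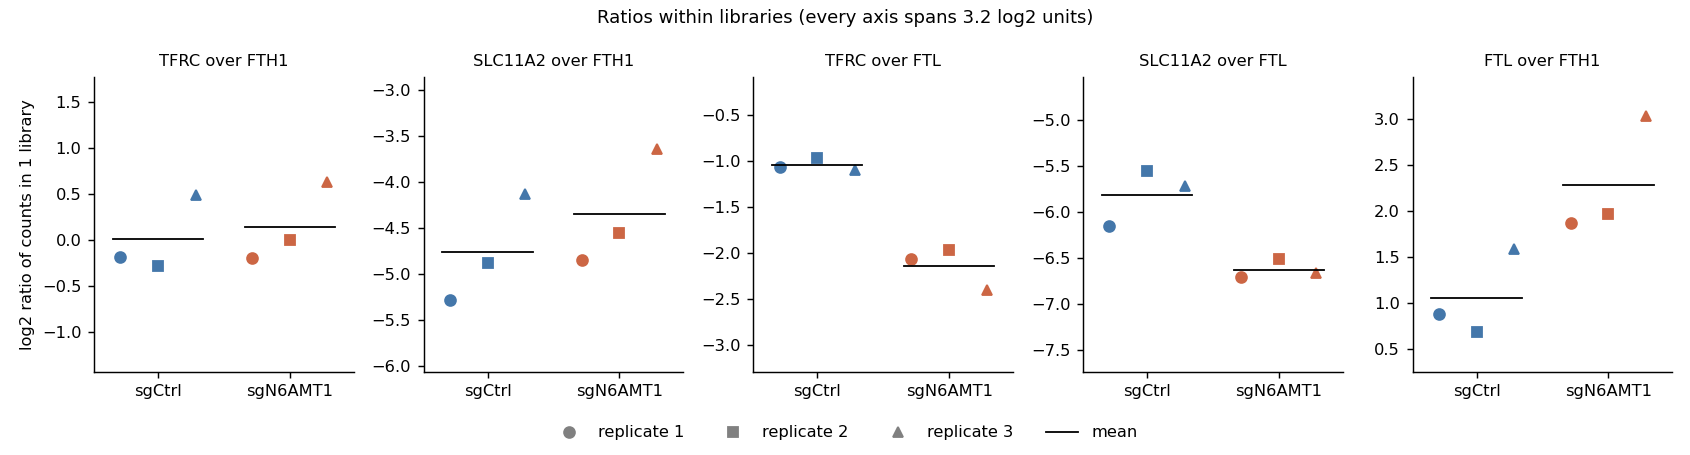
Log2 ratios of counts within each library (vertical axes, all of the same span, each around its own centre) for TFRC and SLC11A2 over each ferritin chain and for FTL over FTH1; points are the 3 sgCtrl (blue) and 3 sgN6AMT1 (orange) libraries and black lines the means. The conditions overlap in the ratios to FTH1 and separate in the ratios to FTL, and FTL over FTH1 rises from a mean of 1.05 to 2.28.

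Divided by transcript length, the sgCtrl levels ran from FTL at 2584 ± 361 cpm per kb through FTH1 at 911 ± 169, TFRC at 217 ± 22.6 and NCOA4 at 75.4 ± 2.96 cpm per kb, and the libraries of these 4 genes did not overlap one another. TFR2 (22.1 ± 2.36 cpm per kb), SLC40A1 (20.9 ± 2.76) and IREB2 (18.3 ± 2.58) followed and did not differ beyond their spread, nor did SLC11A2 (9.69 ± 2.42) and FBXL5 (8.62 ± 2.82). STEAP3 was last at 4.13 ± 0.34 cpm per kb (SD, n = 3 throughout). The first 4 genes kept this order in sgN6AMT1, at 4694, 714, 183 and 111 cpm per kb. The 10 genes together took 0.507% ± 0.018 of all counts in sgCtrl and 0.649% ± 0.037 in sgN6AMT1 (SD, n = 3), and the ferritins 66.5% ± 0.97 and 75.6% ± 1.28 of that share.

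**Figure D4:**
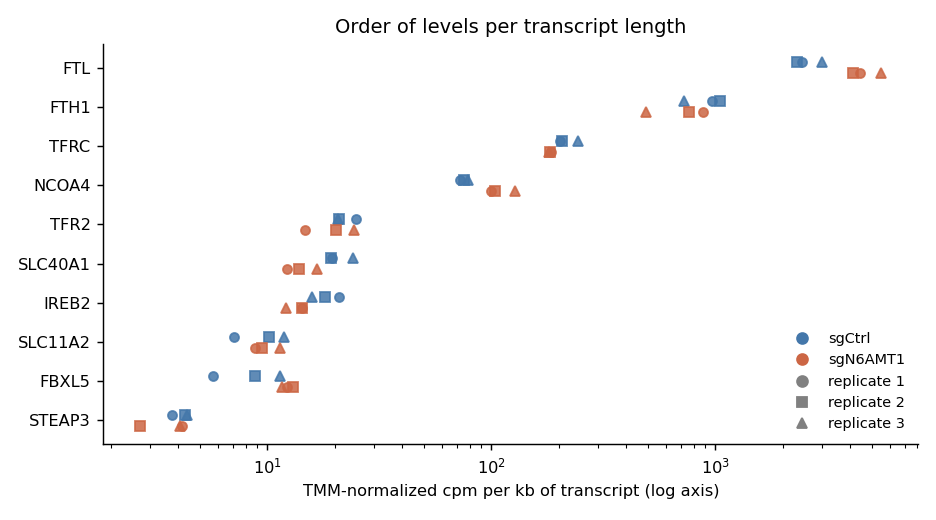
TMM-normalized cpm per kb of canonical transcript (horizontal log axis) for the 10 iron genes, ordered by their sgCtrl mean, with 1 point per library (blue sgCtrl, orange sgN6AMT1, marker shape by replicate number). FTL, FTH1, TFRC and NCOA4 stand apart from one another in sgCtrl, and the next 3 genes share 1 range.

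A further 49 genes of iron handling were listed by role to place the 10 in their pathway, of which 30 passed the filter. Of these 30, 4 rose and 4 fell, and 12 had an unadjusted p under 0.05, against 9.85% called and 26.2% at that unadjusted p among all tested genes. Their median log2 fold change was 0.18, and that of all tested genes 0.01. At 0 counts in all 6 libraries were 10 of the 49. They include HMOX1, the inducible heme oxygenase that frees iron from heme. Taking 3 counts as the upper bound, its 0 counts allow up to 4.04 raw cpm (without TMM normalization) in the shallowest library.

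Among the other transcripts with a known or proposed IRE, ALAS2 showed the largest difference of all the iron genes tested. Its level was 71.6, 70.6 and 83.7 cpm in sgCtrl and 253, 237 and 320 cpm in sgN6AMT1. The libraries of the conditions were far apart, and the 3.59-fold increase (log2 fold change 1.84, SE 0.17, adjusted p = 6.59e-06, edgeR's quasi-likelihood test) was called under all 17 alternatives. Within a library ALAS2 also rose relative to FTL, from 0.0339, 0.0353 and 0.0323 ALAS2 counts per FTL count to 0.0653, 0.0662 and 0.0665. EPAS1, which encodes the hypoxia-inducible factor HIF-2α, rose from 16.1 ± 3.63 to 38.7 ± 6.79 cpm (log2 fold change 1.25, SE 0.29, adjusted p = 0.0136, edgeR's quasi-likelihood test). CDC42BPA, a kinase of the cytoskeleton, fell from 412 ± 30.1 to 293 ± 36.5 cpm (adjusted p = 0.0376, same test). Errors are SD with n = 3 throughout. Neither EPAS1 nor CDC42BPA held a hairpin in its canonical transcript by the rule above.

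Among the partners of the sensors, RBX1, the RING subunit of the ligase that FBXL5 joins, rose from 38.2 ± 7.0 to 65.8 ± 12.0 cpm (log2 fold change 0.81, SE 0.23, adjusted p = 0.0298, edgeR's quasi-likelihood test), and the other 4 did not pass. In the uptake and endosome list, SLC39A8, a transporter of zinc and other divalent metals, rose from 85.2 ± 4.43 to 127 ± 3.49 cpm (adjusted p = 0.0323, same edgeR test), and the other 4 tested did not pass.

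In the list of iron chaperones and storage genes, 4 were tested and 2 fell, PCBP1 and PCBP2, whose proteins hand iron to ferritin. PCBP1 went from 178 ± 14.4 to 108 ± 20.8 cpm (log2 fold change -0.75, SE 0.17, adjusted p = 0.0108, edgeR's quasi-likelihood test). PCBP2 went from 599.6 ± 50.3 to 346 ± 88.9 cpm (log2 fold change -0.81, SE 0.17, adjusted p = 0.00773, same test). Both proteins also bind many other RNAs. None of the heme-iron list (5 tested) or of the export and systemic list (1 tested) was called by edgeR or by DESeq2, and 1 of these 6 had an unadjusted p under 0.05 in edgeR.

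Leaving out some libraries lowered the number of calls in the whole table, to 303 without sgCtrl replicate 1, 220 without sgCtrl replicate 2 and 495 without sgN6AMT1 replicate 2, against 820. Of the 8 other iron genes called, ALAS2 and PCBP2 stayed called without sgCtrl replicate 1 and likewise without sgCtrl replicate 2, and 4 did without sgN6AMT1 replicate 2. The log2 fold changes of these genes kept their direction under all 17 alternatives, but not always their size. PCBP2 ran from -1.01 to -0.42, PCBP1 from -0.93 to -0.43, RBX1 from 0.45 to 0.93 and CDC42BPA from -0.59 to -0.30. The smallest sizes of PCBP2, PCBP1, RBX1 and CDC42BPA came from setting sgN6AMT1 replicate 1 alone, the library of like depth, against the sgCtrl libraries. Without sgCtrl replicate 1 the log2 fold changes were 1.24 for EPAS1, 0.60 for SLC39A8, -0.49 for CDC42BPA, -0.69 for PCBP1, -0.78 for PCBP2 and 0.68 for RBX1. SLC39A8 was called under 10 of 17 alternatives, CDC42BPA and RBX1 under 11, EPAS1 and PCBP1 under 14, and PCBP2 under 16.

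**Figure D5:**
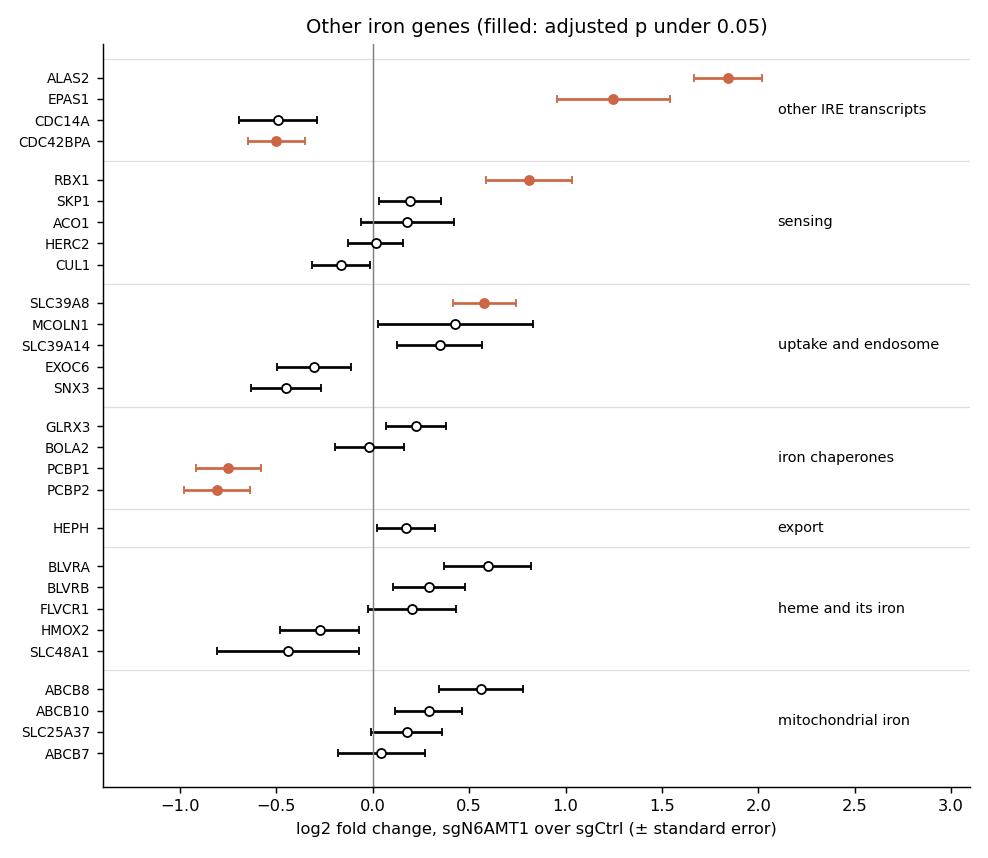
Log2 fold change with its standard error, sgN6AMT1 over sgCtrl (horizontal axis), of other iron genes that passed the filter, grouped by role and sorted within each role; filled orange points passed an adjusted p of 0.05 in edgeR's fit of all genes. Not every tested gene is shown, and among those shown ALAS2 at 1.84 lies farthest to the right and PCBP2 at -0.81 farthest to the left.

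Of 12 erythroid genes, all tested, HBG1, HBG2 and HBE1 rose and LMO2 fell, and 8 were not called, where 9.85% of all tested genes were called. LMO2 went from 41.8 ± 11.4 to 20.2 ± 2.42 cpm (SD, n = 3; log2 fold change -1.01, adjusted p = 0.0239, edgeR's quasi-likelihood test). HBZ was not called but was lower in each sgN6AMT1 library, at 688 ± 124 and 525 ± 28.1 cpm (log2 fold change -0.39). HBA1 and HBA2 each had a log2 fold change of 0.05. HBG1 went from 5502 ± 1976 to 11332 ± 4072 cpm and HBG2 from 5250 ± 1914 to 10868 ± 3880 cpm (SD, n = 3), with overlapping ranges, since sgCtrl replicate 3 and sgN6AMT1 replicate 1 had 7766 and 7761 cpm of HBG1. The levels of HBG1 and HBG2 ran in parallel across the libraries. How reads shared between them were assigned is not given in the sources used here, so they may not be separate observations. HBE1, the embryonic beta-like globin, went from 1108 ± 182 to 2047 ± 344 cpm (log2 fold change 0.89, SE 0.17, adjusted p = 0.00414, edgeR's quasi-likelihood test), while GATA1, the erythroid master regulator, had 112 ± 35.8 and 108 ± 10.8 cpm (adjusted p = 0.945, same test). Of the genes not called, TAL1 had 23.3 ± 14.8 and 45.1 ± 7.22 cpm, with overlapping ranges (log2 fold change 1.02, SE 0.32, adjusted p = 0.0504, edgeR's quasi-likelihood test). KLF1 had 72.8 ± 12.1 and 72.4 ± 24.9 cpm (adjusted p = 0.936, same test). The summed level, carried by HBG1 and HBG2, was highest in replicate 3 of each condition, the libraries in which FTL was highest and FTH1 lowest. The part of these globins in the FTL and ALAS2 values was not tested.

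Of 12 markers of other cell types, 11 were in the table, CD4 and MS4A1 were at 0 in all libraries, and 3 passed the filter. KRT18 and LYZ were called higher and EPCAM was not called. The summed level of the list was 594 to 724 cpm in sgCtrl and 894 to 1141 cpm in sgN6AMT1, most of it KRT18, and its part in the results was not tested.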

How the data were processed

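RNA-Seq counts of 6 K562 libraries, 3 sgCtrl and 3 sgN6AMT1, were analysed. The authors trimmed reads with cutadapt, mapped them with HISAT2 to GRCh38, counted them on genes of an Ensembl annotation and deposited raw counts per gene, without normalization; the use of strand and of multiply mapped reads is not given in the sources used here. The study's methods describe rRNA-depleted total RNA, while the labels name polyA RNA.

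The quasi-likelihood test of edgeR 4.0.16 in R 4.3.3 was run over the 6 libraries without covariates, after filterByExpr at its defaults and TMM normalization (functions glmQLFit, glmQLFTest). Adjusted p-values are Benjamini-Hochberg values over the 8324 genes tested, and a gene was called at an adjusted p under 0.05. TMM-normalized cpm are the levels quoted. Log2 ratios within a library used a prior of 0.5 counts. The fit was first tested on simulated counts. Symbols were matched to GENCODE v44 (18851 of 19330, 867 through an older symbol) for positions, lengths and hairpins, searched in Python 3.11.15.

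The members, the lists and the markers were chosen with earlier results of these data known. Named genes are the 10 iron genes, the other iron genes called, ACO1, ALAS2, EPAS1 and HMOX1, and N6AMT1. Some of the other iron genes counted under this rule are not reported here by name. HBE1, GATA1 and the other markers were named after their values were seen. As alternatives, the comparison was repeated with DESeq2 1.42.0, scaling by RLE or by total counts, other filters, TMM leaving out mt-DNA-encoded genes, the replicate number as a block, a GC content and length correction (transcript values known for 8160 genes, 98.0%) with and without that block, thinning of sgN6AMT1 replicates 2 and 3 to 858710 counts, and each library left out. A fit of the 4 libraries of like depth was added after seeing the data. Replicates differed by more than sampling noise (chi-square over its degrees of freedom, 2.09 to 15.3).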

Additional observations from a re-analysis of the deposited data

How the results depend on the processing

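Of 170 refits of the 10 iron genes (17 alternatives each), 164 kept the side of the threshold and, for called genes, the direction; 5 lost a call, 1 gained a call, and 0 reversed one. DESeq2, RLE size factors, total counts, both other filters, TMM without mt-DNA-encoded genes, GC content and length correction and thinning each called FTL and NCOA4. With 1 library left out, 0 to 2 of the 10 were called, and in the libraries of like depth 1 was; that fit holds 1 sgN6AMT1 library, assumed to vary like the sgCtrl libraries, so its calls and losses say little about stability. FTL had log2 fold changes of 0.63 (GC content and length correction with the block) to 0.98. Of the other iron genes, 8 of 30 tested were called in the fit as reported, 5 of 33 by DESeq2, 5 of 30 after thinning and 2 to 7 with 1 library left out. The share called among all tested genes moved as well. It was 9.85% in the fit as reported, 6.7% by DESeq2, 7.44% after thinning and 2.54% to 11.2% with 1 library left out. The contrast of IRP-stabilized transcripts with ferritins, -0.34, became -0.96 against FTL alone and 0.28 against FTH1 alone (FTL has a positive and FTH1 a negative log2 fold change), and was -0.48 to -0.20 with 1 library left out. Of all genes, 820 were called, with 1389 under the GC content and length correction with replicate block, 1195 under the replicate block, 220 to 951 with 1 library left out (the fewest without sgCtrl replicate 2), and 122 in the libraries of like depth. The cause of these differences was not tested.

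The replicate numbers shared between the conditions were not shown to pair the libraries: deviations of same-numbered libraries correlated at -0.00052, 0.083 and 0.19, and not every library correlated best with its own number. With the replicate block 2 of the 10 iron genes and 8 of the other iron genes were called, and FTL had a log2 fold change of 0.86. With the block and the GC content and length correction 3 of the 10 were called, FTH1 joining at -0.51, and 10 of the others. Depth limits STEAP3, FBXL5 and SLC11A2, at 12 to 42 counts in the sgCtrl libraries.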
